A study of Mus musculus with 6 samples.

Results

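The cytokine and growth factor receptors examined here are 10 genes that encode receptor chains for G-CSF (*Csf3r*), interleukins (*Il4ra*, *Il6ra*, *Il10ra*, *Il15ra*, *Il17ra*, *Il21r*), interferon gamma (*Ifngr1*) and TGF-beta (*Tgfbr1*, *Tgfbr2*). They were picked by gene symbol, with earlier results of these data known. Each was found among the 38739 genes listed for neutrophils of cGAS-/- mice kept with or without LPS. All 10 had a mean of at least 1 scaled TPM over the 6 samples and were among the 23049 genes tested. Scaled TPM is the name used here for the deposited values. They were read as the TPM that Kallisto gives each transcript, averaged by gene and rescaled by a factor common to all genes of a sample.

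These receptors set what a neutrophil can hear once it has left the blood. Type I receptors (G-CSF, IL-4, IL-6, IL-21) and type II receptors (IL-10, interferon gamma) have no enzyme of their own and signal through JAK kinases and STAT factors. The IL-15 receptor alpha chain mainly holds its ligand for other chains, and IL-17 receptor A signals through the adaptor Act1 and TRAF6. The TGF-beta receptors are themselves kinases, in which the type II chain binds the ligand and phosphorylates the type I chain, which then phosphorylates SMAD2 and SMAD3. In neutrophils, G-CSF receptor signalling is best known for driving their production and survival.

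The untreated group (n = 3) and the LPS group (n = 3) both came from cGAS knockout mice of the strain labelled C57B/L6, which lack the cytosolic DNA sensor that makes cyclic GMP-AMP. The mice were male and 8 weeks old. Their peritoneal cells were drawn by thioglycolate, an irritant, and washed out after 2 h with no sorting step named, then kept for 2 h in medium alone or with LPS, the endotoxin of Gram-negative bacteria. The labels give 500 ng/mL of LPS and the methods of the study a lower dose for the sequenced cells. No wild-type sample was analysed here, so a change cannot be set against cells with cGAS, and nothing says whether the 3 samples of a group came from separate mice, so p-values measure only the spread between these samples.

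The libraries of the untreated and LPS groups also differed in make-up, which the design cannot tell apart from the treatment. *Cgas* was listed at 0.180 to 0.307 scaled TPM in the untreated and 0.0286 to 0.184 in the LPS samples. The number of reads behind a value is unknown. Protein-coding genes held 21.0 to 28.3% of the summed values in the untreated and 49.7 to 58.9% in the LPS samples, and pseudogenes held most of the rest. All 9 listed neutrophil markers were above 0. They did not move together: *S100a8* was at 2086 to 8406 scaled TPM in the untreated and 5536 to 19851 in the LPS samples and *S100a9* at 5233 to 16151 and 8899 to 28393, while *Cxcr2* was at 39.4 to 120 and 7.10 to 23.6, without overlap, and *Ltf* was lower without overlap too. B cell markers summed to 142 to 550 scaled TPM in the untreated and 67.3 to 237 in the LPS samples, and macrophage markers to 163 to 198 and 268 to 417. The B cell marker *Cd79a* reached 457 scaled TPM in the first untreated sample, and of the macrophage markers *Cd68* was at 157 to 179 in the untreated and 230 to 381 in the LPS samples and *C1qb* at 0.712 to 4.75 and 17.3 to 23.95, while *Mrc1* was at 1.17 to 2.50 and 0.611 to 1.01. *Cxcr2*, *Ltf* and *Mrc1* were named after their values were seen. Over all samples, sums ran as follows for T cell markers (8.72 to 23.0), NK cell markers (1.18 to 7.92), eosinophil markers (0.610 to 1.90, with *Epx* at 0 in all samples), mast cell or basophil markers (4.69 to 49.1) and mesothelium or fibroblast markers (0.564 to 2.70). Red cell and platelet markers summed to 82.3, 18.01 and 1717 in the untreated and 352, 94.8 and 2573 in the LPS samples, so the third sample was highest in both groups. Mast cell or basophil markers were also highest in the third sample of both groups (40.8 untreated, 49.1 with LPS). Fewer cells of a type and less RNA per cell cannot be told apart in these bulk samples.

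The second sample of each group stood apart, and this touches most of the receptors. It had the highest neutrophil marker sum of its group (27938 against 9056 and 9570 untreated, 54265 against 15802 and 18026 with LPS) and the lowest B cell marker sum. *S100a8* and *S100a9* made up most of these neutrophil sums, and not every neutrophil marker was highest in the second sample. *Il6ra*, *Il10ra*, *Il17ra* and *Tgfbr1* were highest, and *Il15ra*, *Il21r* and *Tgfbr2* lowest, in the second sample of both groups. That is 4 and 3 of the 10 receptors, against 17.4 and 20.5% of the 9403 genes with a mean of at least 1 scaled TPM. The part of cell mixture in these values was not tested.

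The promoters of the 4 receptors whose untreated and LPS values did not overlap are shown here because they are the genes the results turn on, a choice made with their values known. Each runs from 250 bases before to 50 bases after the start of transcription, from RefSeq on GRCm38.p6, and capitals mark matches to a searched motif on either strand. *Csf3r* carries a kappa B match and GAGGAA, the core bound by PU.1, at chr4:126024409-126024708, plus strand.
Csf3r: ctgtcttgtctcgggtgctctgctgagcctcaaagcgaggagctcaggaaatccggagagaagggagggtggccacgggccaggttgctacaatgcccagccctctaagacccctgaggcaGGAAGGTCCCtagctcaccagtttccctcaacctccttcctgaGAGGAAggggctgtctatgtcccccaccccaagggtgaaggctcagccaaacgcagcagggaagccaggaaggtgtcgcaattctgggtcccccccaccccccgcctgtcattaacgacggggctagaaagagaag
*Il4ra* carries GGGCGG, the GC box, and a kappa B match behind the start site at chr7:125552021-125552320, plus strand.
Il4ra: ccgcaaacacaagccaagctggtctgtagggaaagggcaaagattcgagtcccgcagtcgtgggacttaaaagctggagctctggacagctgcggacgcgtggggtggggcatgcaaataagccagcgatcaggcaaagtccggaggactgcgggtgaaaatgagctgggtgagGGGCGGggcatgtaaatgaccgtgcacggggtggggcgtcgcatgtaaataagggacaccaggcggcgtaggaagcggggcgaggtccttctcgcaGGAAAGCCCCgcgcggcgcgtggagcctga
*Tgfbr1* has 2 windows, of which the first by position, at chr4:47352972-47353271, plus strand, is printed and carries 2 CCAAT boxes and 2 GC boxes, while the other holds GAGGAA with 1 CCAAT box and no GC box.
Tgfbr1: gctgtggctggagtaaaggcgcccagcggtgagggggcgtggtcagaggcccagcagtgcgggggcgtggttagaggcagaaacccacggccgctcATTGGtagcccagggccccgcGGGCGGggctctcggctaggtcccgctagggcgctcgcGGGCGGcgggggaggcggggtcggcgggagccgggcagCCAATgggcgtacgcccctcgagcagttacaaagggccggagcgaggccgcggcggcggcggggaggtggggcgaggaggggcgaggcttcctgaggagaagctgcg
*Tgfbr2* carries 2 CCAAT boxes and GAGGAA at chr9:116175314-116175613, minus strand.
Tgfbr2: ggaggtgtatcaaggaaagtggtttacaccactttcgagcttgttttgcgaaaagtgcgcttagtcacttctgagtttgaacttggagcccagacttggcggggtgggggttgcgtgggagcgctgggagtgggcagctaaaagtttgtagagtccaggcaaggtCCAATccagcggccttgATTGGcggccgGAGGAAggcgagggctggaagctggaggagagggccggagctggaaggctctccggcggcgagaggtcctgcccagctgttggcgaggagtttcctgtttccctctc

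Of these 4 windows, the kappa B motif, the site of NF-kappaB, was matched in *Csf3r* (bases 122 to 131 of the window) and *Il4ra* (bases 271 to 280), genes with lower and higher values after LPS. Among all 32851 promoter windows, 8.46% held a kappa B match, 28.3% GAGGAA, 37.4% CCAAT and 35.7% GGGCGG. The other motifs searched were TTCNNNGAA, the GAS element bound by STAT factors (8.30% of windows), TATAAA (13.6%) and TGANTCA, the AP-1 site (7.81%), and these letters are not in the 4 windows. A match describes the sequence and is no measure of binding. Windows were found for 8 of the 10 receptors, and *Il10ra* and *Il17ra* had none.

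Whether LPS changed the receptors was asked gene by gene, with limma on log2(scaled TPM + 1). A gene was called by the limits of the study (a log2 fold change beyond 2 in either direction at an unadjusted p under 0.01) or, as a second rule, at a Benjamini-Hochberg adjusted p under 0.05. With the samples unpaired, none of the 10 receptors passed either rule in limma. Of all genes tested, 2.99% passed the first rule and 1.84% the second. At an unadjusted p under 0.05, 2 receptors were higher (*Il4ra*, *Tgfbr1*) and 2 lower (*Csf3r*, *Tgfbr2*), against 10.3% of all genes higher and 6.66% lower. The same 4 had LPS values that did not overlap the untreated ones. Over all genes, 13.1% did not overlap with LPS higher and 9.75% with LPS lower, and among genes with a mean of at least 1 scaled TPM these shares were 19.1 and 15.2%. The log2 fold change was above 0 in 5 receptors and below 0 in 5, with a median of -0.31, against 0.13 over the 9403 genes with that mean. Among protein-coding genes with that mean the median was 0.37. The sign of the receptor median depended on 1 sample, as it was 0.099 without the third untreated sample.

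**Figure D1:**
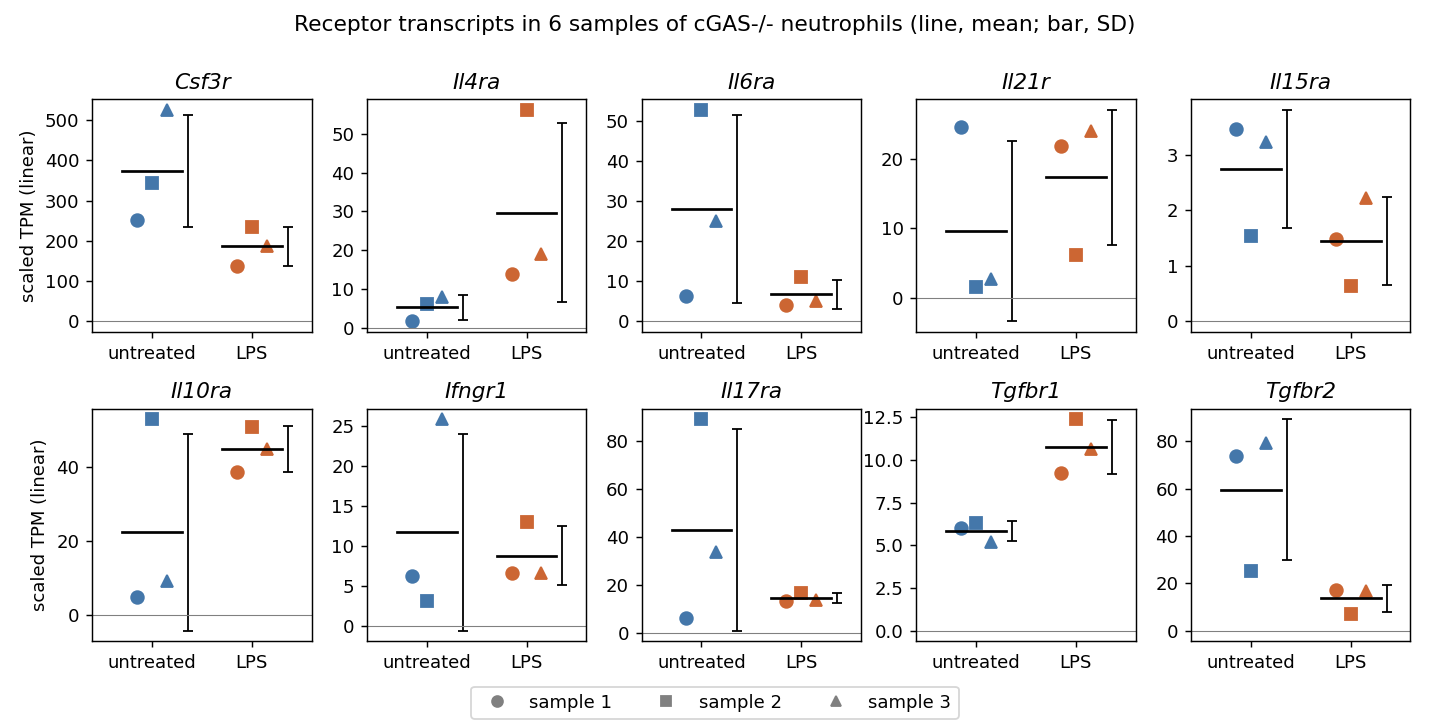
Scaled TPM (linear axis, scale set per gene) of the 10 receptor genes in 3 untreated and 3 LPS samples, with the mean as a line and the SD as a bar; marker shapes give the sample number. The groups do not overlap for *Csf3r*, *Il4ra*, *Tgfbr1* and *Tgfbr2*, and the second untreated sample sets the untreated mean of *Il10ra*, *Il17ra* and *Il6ra*.

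*Csf3r* (chromosome 4, 125918262 to 125938236, plus strand, GRCm39) encodes the only receptor of G-CSF. It was at 251, 345 and 525 scaled TPM in the untreated and 138, 233 and 188 in the LPS samples. Every LPS sample was below every untreated one. The means were 373 ± 139 and 186 ± 47.7 (SD, n = 3 each). The log2 fold change was -0.97 (SE 0.39, 95% interval -1.91 to -0.02), which did not pass after adjustment (adjusted p = 0.284). Leaving out any 1 sample gave -1.22 to -0.69.

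*Il4ra* (chromosome 7, 125151079 to 125182844, plus strand) encodes the chain shared by the IL-4 and IL-13 receptors, which signals through STAT6. It was at 1.67, 6.10 and 8.01 scaled TPM in the untreated and 13.8, 56.1 and 19.1 in the LPS samples. The lowest LPS value was above the highest untreated value, and the second LPS sample stood above the other LPS samples. The means were 5.26 ± 3.25 and 29.7 ± 23.0 (SD, n = 3 each), a ratio of 5.64. Its log2 fold change of 2.21 (SE 0.69, 95% interval 0.52 to 3.91) was the highest of the 10 and lay at the 98.2 percentile of all genes tested. It was beyond the fold limit but missed the p limit in the unpaired fit (adjusted p = 0.177). With same-numbered samples fitted as pairs in limma it passed both limits (unadjusted p = 0.00862, adjusted p = 0.181). The change was 1.64 without the second LPS sample and 2.61 without the first.

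*Il21r*, the neighbour of *Il4ra*, lies 19756 bases away on the same strand (chromosome 7, 125202601 to 125232756) and encodes a type I receptor best known in lymphocytes. It was at 24.6, 1.54 and 2.71 scaled TPM in the untreated and 21.8, 6.24 and 24.0 in the LPS samples. The first untreated sample was above every LPS sample and the other untreated samples below them. The log2 fold change was 1.36 (SE 0.99, 95% interval -1.05 to 3.78, adjusted p = 0.551), and it was 2.38 without the first and 0.72 without the second untreated sample. B cell markers summed to 550, 142 and 407 in the untreated and 237, 67.3 and 225 in the LPS samples, so that *Il21r* and the B cell sum were both highest in the first and lowest in the second untreated sample, and both lowest in the second LPS sample. In the third untreated sample the B cell sum was high and *Il21r* low. The part of B cells in the *Il21r* values was not tested.

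*Il6ra* (chromosome 3, 89771366 to 89820719, minus strand) encodes the chain that binds IL-6 before gp130 joins, and it can be shed from neutrophils. It was at 6.24, 52.9 and 25.05 scaled TPM in the untreated and 4.09, 11.005 and 5.201 in the LPS samples. The first untreated value lay within the LPS range, and the other untreated values lay above it. Its log2 fold change was -1.58 (SE 0.79, 95% interval -3.51 to 0.35, adjusted p = 0.372). Without the first untreated sample it was -2.37 and passed the limits of the study (adjusted p = 0.114), and without the second untreated sample it was -0.92.

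*Il15ra* (chromosome 2, 11710101 to 11739128, plus strand) encodes the chain that presents IL-15. It was at 3.47, 1.53 and 3.24 scaled TPM in the untreated and 1.49, 0.640 and 2.22 in the LPS samples. The second untreated value lay within the LPS range. Its log2 fold change was -0.62 (SE 0.41, 95% interval -1.63 to 0.38, adjusted p = 0.513), and at these low values the added 1 of the log scale makes a fold change smaller.

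Among the type II receptors, *Il10ra* (chromosome 9, 45165132 to 45180563, minus strand) encodes the chain through which IL-10 restrains inflammation by way of STAT3. It was at 4.73, 52.8 and 9.23 scaled TPM in the untreated and 38.6, 50.8 and 44.9 in the LPS samples. The LPS samples lay close together, and the second untreated sample was above all of them. On the log2 scale the fold change was 1.63 (SE 0.83, 95% interval -0.39 to 3.65, adjusted p = 0.377). Without the second untreated sample it was 2.57 and passed both rules (adjusted p = 0.0459), and without the second sample of both groups it was 2.48. Without the first untreated sample it was 0.96 (adjusted p = 0.521). *Gm20612*, which overlaps *Il10ra* on the same strand, was at 0, 10.8 and 0 scaled TPM in the untreated and 12.3, 63.1 and 17.1 in the LPS samples, above 0 in the 4 samples where *Il10ra* was high. A search of transcripts found 0 genes with a stretch near-identical to *Il10ra* (at least 95% identity over at least 150 bases). Whether reads were split between the 2 overlapping genes was not tested.

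*Ifngr1* (chromosome 10, 19467697 to 19485977, plus strand) encodes the ligand-binding chain for interferon gamma. It was at 6.24, 3.14 and 25.8 scaled TPM in the untreated and 6.62, 13.1 and 6.69 in the LPS samples. All LPS values lay within the untreated range. Its log2 fold change was 0.01 with a 95% interval from -1.78 to 1.80 (SE 0.74, adjusted p = 0.996), and a change within that interval was not detectable with this spread. Its sign depended on the samples, with -0.57 without the second and 0.78 without the third untreated sample.

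*Il17ra* (chromosome 6, 120440104 to 120464520, plus strand) encodes the chain common to most IL-17 receptors. It was at 6.27, 88.9 and 33.7 scaled TPM in the untreated and 13.04, 16.6 and 13.7 in the LPS samples. The LPS values lay within the untreated range and differed by a factor of 1.27, against 14.2 in the untreated samples. In log2 terms the fold change was -0.88 (SE 0.90, 95% interval -3.07 to 1.30, adjusted p = 0.602). It was -1.86 without the first and -0.05 without the second untreated sample.

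The changes of the TGF-beta receptor chains lay on opposite sides of 0. *Tgfbr1* (chromosome 4, 47353134 to 47414931, plus strand), the type I chain, was at 6.01, 6.28 and 5.17 scaled TPM in the untreated and 9.25, 12.4 and 10.6 in the LPS samples. Every LPS sample was above every untreated one, and the SD on the log2 scale in the untreated group, 0.12, was the smallest of the 10 genes. The means were 5.82 ± 0.577 and 10.7 ± 1.57 (SD, n = 3 each), a ratio of 1.85. Its log2 fold change was 0.78 (SE 0.28, 95% interval 0.10 to 1.46, adjusted p = 0.227). With a variance model that does not borrow the trend over the level of genes, the adjusted p was 0.0417.

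*Tgfbr2* (chromosome 9, 115913361 to 116004800, minus strand), the type II chain, was at 73.8, 25.2 and 79.3 scaled TPM in the untreated and 17.3, 6.89 and 16.6 in the LPS samples. Every LPS sample was below every untreated one, and the second sample was the lowest of both groups. The means were 59.5 ± 29.8 and 13.6 ± 5.82 (SD, n = 3 each), and the untreated mean was 4.37 times the LPS mean. The log2 fold change was -1.99 (SE 0.59, 95% interval -3.41 to -0.56), the lowest of the 10, and lay at the 2.07 percentile of all genes tested. It missed both limits of the study in the unpaired fit (adjusted p = 0.154). Without the second untreated sample it was -2.51 and passed the limits of the study, and without the second sample of both groups it was -2.11 and passed them too. It missed them in the other 5 fits with 1 sample left out, and was closest to 0 without the second LPS sample (-1.59). Stretches of *Tgfbr2* transcripts are near-identical to parts of 20 other genes (at least 95% identity over at least 150 bases), so its value may hold reads of theirs or lose some to them. The same limit holds for *Csf3r* (2 other genes), *Il4ra* (1) and *Il6ra* (1), while the remaining receptors had no such stretch.

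The ratio of *Tgfbr1* to *Tgfbr2* within a sample does not depend on how samples were scaled. It was 0.0814, 0.249 and 0.0652 in the untreated and 0.534, 1.80 and 0.640 in the LPS samples, with no overlap. On the log2 scale the means were -3.19 ± 1.04 and -0.23 ± 0.94 (SD, n = 3 each), a difference of 2.95. The ratio was examined after the values of both genes had been seen, and with both groups apart in opposite directions it could not overlap. An exact permutation test of the log2 ratio gave p = 0.1, the smallest possible with 3 against 3 samples. That outcome was fixed by the missing overlap, so the ratio is a description and nothing is concluded from its test.

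**Figure D2:**
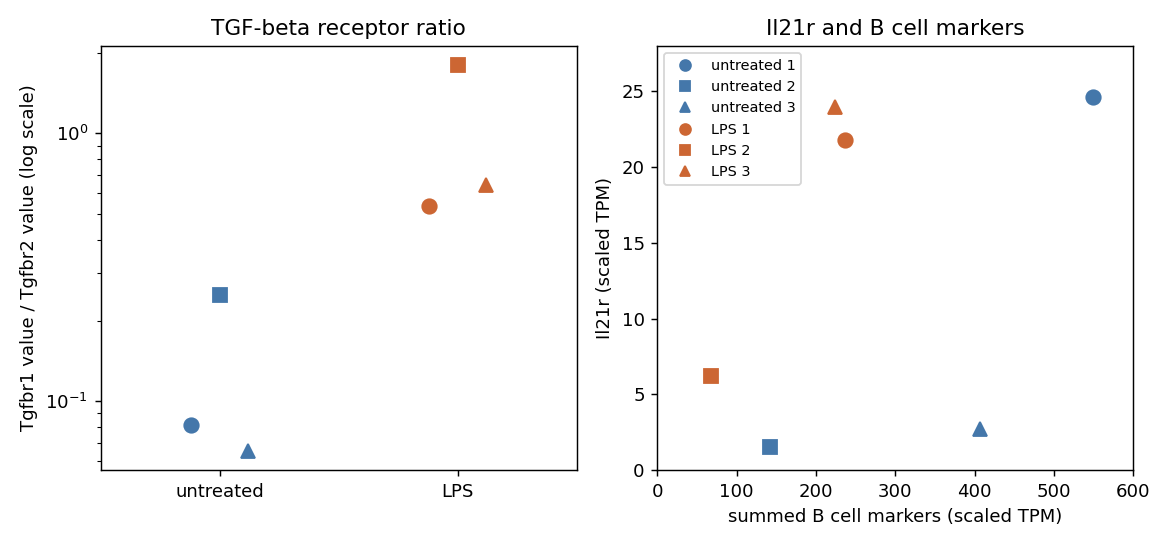
Left, the ratio of *Tgfbr1* to *Tgfbr2* scaled TPM in each sample (log axis), from 0.0652 to 0.249 in untreated and from 0.534 to 1.80 in LPS samples. Right, *Il21r* against summed B cell markers (scaled TPM, linear axes) per sample, where the second sample of each group is lowest on both axes of its group and the third untreated sample has a high B cell sum and a low *Il21r* value.

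Like most genes, the receptors varied more among untreated than among LPS samples. The SD on the log2 scale was larger in the untreated group for 7 of the 10 receptors. Their median SD was 1.16 untreated and 0.50 with LPS. Of the 9403 genes with a mean of at least 1 scaled TPM, 79.5% had the larger SD untreated, with medians of 0.79 and 0.32. The highest untreated value was 15.9 times the lowest for *Il21r*, 14.2 times for *Il17ra*, 11.2 times for *Il10ra*, 8.47 times for *Il6ra* and 8.21 times for *Ifngr1*. With LPS these factors ran from 1.27 (*Il17ra*) to 4.05 (*Il4ra*). The first untreated sample was the lowest of its group for 5 receptors and the highest for 2.

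**Figure D3:**
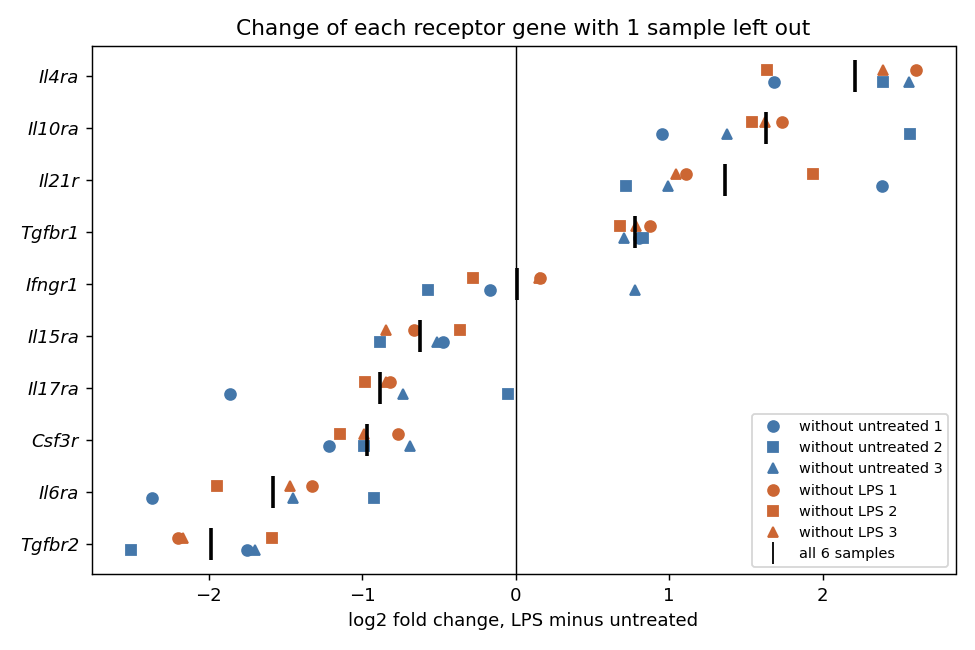
Log2 fold change (LPS minus untreated) of each receptor with all 6 samples (black tick) and with each sample left out in turn (blue, an untreated sample; orange, an LPS sample; shapes give the sample number). *Ifngr1* changes sign, *Il17ra* runs from -1.86 to -0.05, and *Tgfbr1* stays between 0.68 and 0.87.

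Scaling moved all genes together. With each sample set to the same protein-coding sum, the median log2 fold change of genes with a mean of at least 1 scaled TPM went from 0.13 to -0.22. *Tgfbr1* then had 0.33 (adjusted p = 0.556), *Il4ra* 1.78 (0.246), *Csf3r* -1.47 (0.134) and *Tgfbr2* -2.46 (0.163).

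Ligand genes of these receptors rose after LPS in 3 cases. Of 13 ligand genes tested, 3 rose by the limits of the study (*Csf3*, *Il6*, *Il10*) and 0 fell, where 1.69% of all genes tested rose and 1.31% fell. At an unadjusted p under 0.05, 4 were higher and 0 lower, against 10.3 and 6.66% of all genes. The median log2 fold change of the ligands was 0.45. *Csf3*, which encodes G-CSF, was at 0.424, 0.769 and 0 scaled TPM in the untreated and 10.7, 27.2 and 15.004 in the LPS samples. It rose by both rules (log2 fold change 3.68, SE 0.44, adjusted p = 0.0232), while its receptor *Csf3r* had lower values in every LPS sample. *Il6* was at 0.246, 0 and 0.728 in the untreated and 11.6, 2.39 and 10.6 in the LPS samples (log2 fold change 2.61, SE 0.59, adjusted p = 0.0901). *Il10* was at 1.15, 24.2 and 32.1 in the untreated and 230, 970 and 147 in the LPS samples (log2 fold change 4.72, SE 1.24, adjusted p = 0.119). With 1 sample left out, *Csf3* passed the limits of the study in 6 of 6 fits but an adjusted p under 0.05 in only 1, *Il6* passed the limits in 2 and *Il10* in 1. The count was 1 without the first or the second untreated or the first or the third LPS sample, and 2 without the second LPS sample.

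The remaining ligands did not pass. *Il15* was at 0.614, 1.16 and 1.43 scaled TPM in the untreated and 4.84, 2.14 and 6.70 in the LPS samples (log2 fold change 1.35, adjusted p = 0.185). *Tgfb1* was at 11.4, 82.3 and 12.8 in the untreated and 51.5, 47.8 and 42.6 in the LPS samples (0.99, adjusted p = 0.551), and like *Il10ra* and *Il17ra* it was highest in the second untreated sample. The genes of IL-4, IL-17A, IL-17F, IL-21 and interferon gamma, named after their values were seen, had at most 1.16 scaled TPM in every sample.

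Of the 19 tested genes of the signalling steps behind the receptors that are reported here, 0 passed the limits of the study in limma. In the same fit 5 were higher and 2 lower at an unadjusted p under 0.05, against 10.3 and 6.66% of all genes. By adjusted p 1 rose (*Stat5a*) and 1 fell (*Smad3*), where 0.894% of all genes tested rose and 0.946% fell by adjusted p. *Stat5a*, a STAT factor used by many type I receptors including that of G-CSF, was at 4.49, 3.07 and 4.10 scaled TPM in the untreated and 15.5, 17.1 and 23.0 in the LPS samples (log2 fold change 1.99, SE 0.31, adjusted p = 0.0410). *Smad3*, a carrier of the TGF-beta receptor signal, was at 52.9, 64.9 and 47.5 in the untreated and 13.5, 19.2 and 13.7 in the LPS samples (log2 fold change -1.77, SE 0.30, adjusted p = 0.0495). The groups did not overlap for either gene, and both missed the fold limit. The adjusted p of *Stat5a* and *Smad3* was over 0.05 in all 6 fits with 1 sample left out.

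The other signalling genes named did not pass. *Grb2*, an adaptor, was at 8.40, 41.5 and 30.1 scaled TPM in the untreated and 89.1, 110 and 88.8 in the LPS samples (log2 fold change 2.06, adjusted p = 0.149). *Lyn*, a Src family kinase, was at 39.6, 15.8 and 52.8 in the untreated and 45.5, 97.2 and 49.4 in the LPS samples (0.88, adjusted p = 0.483). By the limits of the study, 3 signalling genes rose without the second untreated sample (*Tyk2*, *Traf6*, *Grb2*), and 1 (*Stat5a*) without the first or the third untreated or the first or the second LPS sample, *Tyk2* and *Traf6* being named after their values were seen.

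None of the 20 tested genes that damp the receptors or shed them passed either rule, with a median log2 fold change of 0.48. At an unadjusted p under 0.05, 3 were higher and 2 lower, near the 10.3 and 6.66% of all genes. *Socs3*, which blocks G-CSF and IL-6 receptor signalling, was at 8.06, 48.0 and 25.5 scaled TPM in the untreated and 31.4, 207 and 58.7 in the LPS samples (log2 fold change 1.70, SE 0.89, adjusted p = 0.394). *Ptpn1*, a phosphatase of JAK kinases, was at 45.2, 81.5 and 22.7 in the untreated and 125, 158 and 95.02 in the LPS samples (1.47, SE 0.52, adjusted p = 0.221), with no overlap. *Traf3*, an adaptor that restrains signalling through TRAF proteins, was at 2.78, 3.87 and 2.12 in the untreated and 10.8, 14.1 and 13.9 in the LPS samples (1.84, SE 0.31, adjusted p = 0.0514), with no overlap, and its adjusted p was under 0.05 in 8 of 17 alternatives. Without the second untreated sample 2 of these genes rose by the limits of the study (*Ptpn11* and *Traf3*, both named after their values were seen).

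Of 10 tested early target genes of these receptors, 3 rose by the limits of the study (*Zc3h12a*, *Junb*, *Il4i1*), 2 of them also by adjusted p, and 0 fell, against 1.69% of all genes tested that rose by those limits and 0.894% by adjusted p. At an unadjusted p under 0.05, 6 were higher and 0 lower, against 10.3 and 6.66% of all genes. The median log2 fold change was 2.65, and all 10 were above 0. *Junb*, an AP-1 subunit, was at 64.2, 92.6 and 55.1 scaled TPM in the untreated and 292, 553 and 409 in the LPS samples (log2 fold change 2.53, SE 0.37, adjusted p = 0.0366). *Zc3h12a*, which encodes an RNase that cuts *Il6* mRNA, was at 14.7, 37.8 and 40.1 in the untreated and 190, 295 and 245 in the LPS samples (3.04, SE 0.46, adjusted p = 0.0400). *Il4i1*, an amino acid oxidase induced by IL-4, was at 7.89, 0.0828 and 1.70 in the untreated and 51.4, 14.1 and 58.0 in the LPS samples (3.60, SE 0.91, adjusted p = 0.111). It passed the limits in 2 of 6 fits with 1 sample left out, and *Junb* and *Zc3h12a* passed in 6, each with an adjusted p under 0.05 in only 1 of them.

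The other targets named did not pass. *Cebpb* was at 600, 941 and 512 scaled TPM in the untreated and 1423, 3142 and 1723 in the LPS samples (log2 fold change 1.58, adjusted p = 0.128). *Lcn2*, also a neutrophil granule gene and counted among the neutrophil markers, was at 77.0, 1284 and 94.7 in the untreated and 879, 4887 and 1190 in the LPS samples (3.02, adjusted p = 0.298). Many of these genes are known to respond to LPS directly, so their values are no measure of signalling by the receptors.

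Of 53 other chains listed for the same receptor families, 28 were among the deposited genes and 27 were tested. None of the 27 passed either rule in limma. At an unadjusted p under 0.05, 4 were higher and 2 lower (10.3 and 6.66% of all genes), and the median log2 fold change was 0.03. *Crlf2*, the TSLP receptor chain, was at 25.6, 28.7 and 14.0 scaled TPM in the untreated and 51.4, 110 and 70.5 in the LPS samples (log2 fold change 1.71, SE 0.43, adjusted p = 0.111), with no overlap. *Ifnlr1*, the interferon lambda receptor chain, was at 16.5, 11.2 and 4.28 in the untreated and 13.1, 32.4 and 17.3 in the LPS samples (0.98, SE 0.57, adjusted p = 0.444). Of these 27 genes, 9 had a mean of at least 1 scaled TPM.

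**Figure D4:**
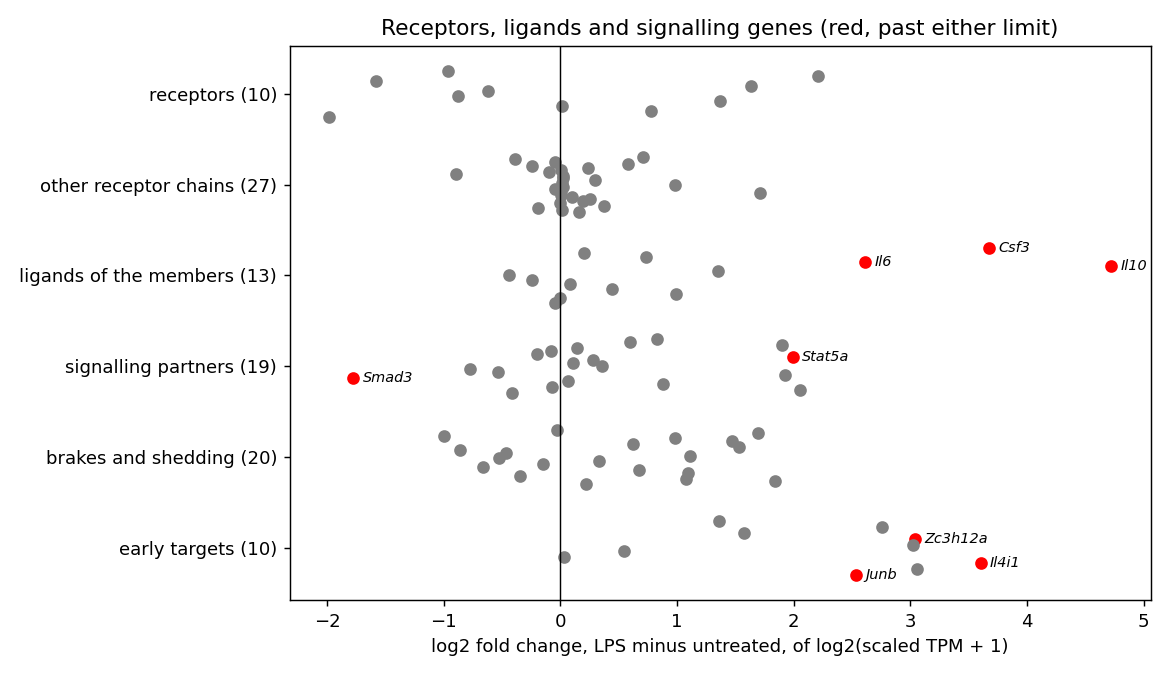
Log2 fold change (LPS minus untreated, of log2(scaled TPM + 1)) of each receptor, of other receptor chains, of ligands, of signalling and damping genes and of early targets, with the number tested in parentheses and vertical offsets that carry no value. Red points passed the limits of the study or an adjusted p under 0.05, and none of the 10 receptors is among them.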

How the data were processed

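RNA of 6 cultures was sequenced as strand-specific libraries, and the authors used STAR for alignment to GRCm39, Kallisto for quantification and edgeR for normalisation, as the methods and labels say. The labels also name fastp and the build mm10. The annotation release and whether counting used strand are not given in the sources used here. The deposited values were read as TPM, averaged by the authors over all transcripts with a gene symbol and rescaled by a factor common to a sample, although the name of the table speaks of counts. In the third untreated sample, 83.0% of 1377 long values became short decimals after a whole multiple of up to 60, against 2.40% of random values. How many transcripts were averaged is not given, so levels are not compared between genes in the text and only serve to pick names and to sum markers. TPM keeps no read number, so depth is unknown and no count test was run.

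Groups came from the sample titles. Genes above 0 in any sample (23049) were fitted in R 4.3.3 using limma 3.58.1 (lmFit, eBayes with trend, two-sided tests) on log2(value + 1), LPS against untreated, without covariates, and p-values were adjusted by Benjamini-Hochberg over all of them. The pipeline was tested on simulated data. Positions and overlapping genes are from GENCODE M39 on GRCm39, matched by symbol, and near-identical stretches from a blastn search of its transcripts. The table covers chromosomes 1 to 12, part of 13 and 1 gene of X. Not every listed gene could be tested: 27 of 53 other receptor chains, 19 of 22 signalling genes, 20 of 29 damping genes and 10 of 16 early targets were.

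The receptors and all lists were chosen with earlier results of these data known. The signalling list leaves out 2 genes that are not reported here. Named genes are the 10 receptors, every called gene of each other list and the 2 of the rest with the highest mean, and the 2 most abundant markers of a cell type or those at 0. For any other gene the text says that it was named with its values known. Alternatives were other pseudocounts, filters, scalings, variance models and limits, the replicate number as a block and leaving out each sample. Chosen after the data had been seen were a fit to protein-coding genes alone, an adjusted p under 0.05 combined with the block, a pseudocount of 0.1 or the protein-coding sum, and leaving out the second sample of both groups. Tables were joined in Python 3.11.15 with pandas 2.3.3, the permutation test used scipy 1.17.1, and figures were drawn with matplotlib 3.10.9.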

Additional observations from a re-analysis of the deposited data

How the results depend on the processing

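Of 170 values of the 10 receptors over 17 alternatives, 157 kept their direction and their side of the limits, 6 passed the limits of the study (a log2 fold change beyond 2 at an unadjusted p under 0.01) and 7 changed sign. Those 7 were all of *Ifngr1*: -0.067 with a pseudocount of 5, -0.025 with quantile normalization, -0.45 with the same protein-coding sum, -0.17, -0.57 and -0.28 without the first untreated, the second untreated and the second LPS sample (leaving out 1 sample gave -0.57 to 0.78), and -0.86 without the second sample of both groups. With the limits of the study, 0 receptors were called higher and 0 lower. Leaving out 1 sample gave 0 to 1 called higher and 0 to 1 lower, and leaving out the second sample of both groups 1 (*Il10ra*) and 1 (*Tgfbr2*). By adjusted p, *Tgfbr1* passed with eBayes without the trend (0.0417) and *Il10ra* without the second untreated sample (0.0459).

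Over all genes, 389 were called higher and 301 lower. These counts were 856 and 493 with a pseudocount of 0.1, 129 and 168 with 5, 220 and 522 with the same protein-coding sum, 834 and 673 at a log2 fold change over 1, 206 and 218 by adjusted p, 293 and 44 among protein-coding genes alone, and 120 and 390 by adjusted p with the protein-coding sum. Leaving out 1 sample gave 260 to 463 higher and 263 to 394 lower. Of ligands, 3 were called higher, and 1 with the protein-coding sum, by adjusted p alone, with a pseudocount of 0.1 or with the protein-coding sum. Leaving out 1 sample gave 1 to 3. Of signalling genes, 0 were called higher and 0 lower. The higher count was 2 with a pseudocount of 0.1, 1 with quantile normalization, 2 at a log2 fold change over 1, 1 by adjusted p with a pseudocount of 1 or 0.1, 1 without the second sample of both groups and 0 to 3 with 1 sample left out. The lower count was 1 with the protein-coding sum, at a log2 fold change over 1 and by adjusted p under each pseudocount and sum tried. Of damping genes, 0 were called, but 1 higher and 1 lower with a pseudocount of 0.1, 1 higher at a log2 fold change over 1 or by adjusted p with a pseudocount of 0.1, and 0 to 2 higher with 1 sample left out. Of other receptor chains, 1 was higher at a log2 fold change over 1. The cause of these shifts was not tested.

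Whether same-numbered samples were paired is not known. Their deviations correlated at 0.0935, 0.199 and 0.0835, against -0.131 to 0.0535 for different numbers, so every sample correlated best with its own number. Because not all exceeded 0.1, the numbers were not taken as pairs in the main fit. With the replicate block, 1 receptor (*Il4ra*, log2 fold change 2.21, adjusted p = 0.181) was called higher, and 387 and 303 of all genes higher and lower. No other receptor changed its call with the block. The unadjusted limma p of *Tgfbr2* (log2 fold change -1.99) went from 0.0143 to 0.00187, and that of *Il6ra* from 0.092 to 0.0261. Those of *Tgfbr1* (0.0303 to 0.0666) and *Ifngr1* (0.988 to 0.989) rose. By adjusted p with the replicate block, 1 gene was higher and 15 lower, and 0 ligands and 0 early targets were higher.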
